A study of Mus musculus with 37 samples.

Results

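JPH1 (ENSG00000104369), SEMA7A (ENSG00000138623), LMO2 (ENSG00000135363) and ZBTB10 (ENSG00000205189) are 4 genes of a count table with 60708 gene IDs, and all 4 were among the 5193 IDs with enough counts to be tested. They were picked by their levels in these same libraries, mainly in splenocytes kept with macrophage-like cells against splenocytes given only the medium of those cells or left naive. The differences between those modes of exposure are therefore given below as descriptions without a test. Tests are limited to washing, oxygen and added SPP1, which did not choose the genes, apart from ZBTB10 in medium, where its SPP1 difference had singled it out. JPH1 and SEMA7A were too low in medium to be tested there, and ZBTB10 is described there without a test.

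Wild-type FVB mouse splenocytes were kept for 48 h with RAW264.7 cells, an established mouse macrophage-like line, or with material from them. The RAW264.7 cells, 40000 seeded per well, had been held for 72 h at 21% oxygen, called normoxia, or at 1%, called hypoxia. Part of these cultures also received recombinant SPP1 (osteopontin, a secreted ligand of integrins and CD44). Splenocytes received the medium of these cells (medium, 11 libraries), the cells without a wash (unwashed, 12 libraries) or the cells after a media wash (washed, 12 libraries), and 2 libraries came from naive splenocytes with neither. Brefeldin A, which blocks protein secretion, was added after the 48 h, and RNA was read from transcript 3′ ends. Crossing mode with oxygen and SPP1 gave 12 groups, which with the naive one made 13; 11 groups had 3 libraries, while naive and medium, normoxia, no SPP1 had 2 (replicates 2 and 3 of the latter). Whether macrophage RNA was left in the collected splenocytes is not given in the sources used here. In such bulk RNA a change in the number of cells of a type and a change in RNA per cell cannot be told apart. The p-values measure the spread between libraries, whose animals of origin are not given.

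JPH1 encodes junctophilin 1, a protein best known for tethering the sarcoplasmic reticulum to the plasma membrane in muscle. SEMA7A encodes a semaphorin held on the cell surface by a GPI anchor, found on activated lymphocytes, that engages integrins. ZBTB10 is a BTB and zinc finger protein known as a repressor of Sp transcription factors, which bind GC-rich promoters. LMO2 is a LIM-only adapter that bridges DNA-binding proteins in blood cell transcription complexes. In the spleen, contact with macrophages brings lymphocytes adhesion and costimulatory signals that conditioned medium lacks, while medium carries the secreted factors. Here the RAW264.7 cells stayed with the splenocytes for the 48 h. Contact and what the cells released in that time therefore cannot be told apart in cultures with cells.

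The mouse reads had been aligned to the human genome, so the gene names stand for human gene IDs that caught mouse reads, and a transcript whose 3′ end differs between the species is undercounted. Libraries held 631574 to 1337314 counts (median 1063211). Levels are CPM, counts scaled to a common library size, and differences are log2 fold changes with their standard error (SE). Comparing levels between genes was avoided, since both the alignment and the length of the counted end differ by gene. In a principal component analysis of all tested IDs, 2 medium libraries without SPP1 stood apart, replicate 1 of hypoxia (-11.6) and replicate 3 of normoxia (-10.7) on the first component, against -57.5 to -41.5 for the other 9 medium libraries. On the second component 4 others did: with washed cells and SPP1, replicate 1 of hypoxia (-54.4) and replicates 1 and 2 of normoxia (-53.3 and -31.8), and with unwashed cells replicate 2 of hypoxia without SPP1 (-32.3). Results resting on these 2 and 4 libraries are given with and without them.

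Of the 4 genes, the mouse promoter table held Sema7a. Its window is printed because SEMA7A was among the genes higher with RAW264.7 cells than with medium. It covers the 250 bases before the gene's start at chr9:57939862-57940111 on the plus strand (RefSeq, GRCm38.p6), and capitals mark the GC boxes (GGGCGG), which lay 84 and 71 bases upstream.
Sema7a: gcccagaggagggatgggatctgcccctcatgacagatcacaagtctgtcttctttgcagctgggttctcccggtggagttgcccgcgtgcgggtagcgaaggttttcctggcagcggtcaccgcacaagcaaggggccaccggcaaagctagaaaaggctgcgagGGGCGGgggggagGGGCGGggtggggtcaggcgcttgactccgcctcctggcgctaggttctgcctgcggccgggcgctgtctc
The window was 66.4% G and C, against a median of 52.4% over all 32851 promoter windows. A GC box on either strand was found in 32.7% of those windows. The letters of an AP-1 site (TGANTCA), an E-box (CACGTG), a cAMP response element (TGACGTCA) and an EGR site (GCGNGGGCG), searched on both strands, had no match in it, and these motifs occurred in 6.75%, 6.02%, 1.55% and 4.7% of all windows. A match is a description of these letters only.

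JPH1 was low in medium and naive splenocytes and high wherever RAW264.7 cells were present. In medium its lowest, median and highest levels were 0.870, 1.93 and 16.0 CPM, from 1 to 23 counts. In unwashed cultures they were 19.7, 51.4 and 68.9 CPM, and in washed cultures 19.3, 66.6 and 159 CPM. The 2 naive libraries had 5.86 and 3.91 CPM. Every unwashed and every washed library thus lay above every medium and naive library. The medium and naive ranges overlapped, as did the washed and unwashed ones. Of all tested IDs, 1.77% had all unwashed above all medium libraries and 2.93% all washed above all medium libraries, and since the gene was chosen on these contrasts nothing more is read from the counts.

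The mean of JPH1 was 3.46 ± 4.35 CPM in medium (SD, n = 11), 48.1 ± 14.9 in unwashed (n = 12) and 72.0 ± 35.3 in washed cultures (n = 12). The fitted log2 difference from medium was 3.87 (SE 0.32) for unwashed and 4.45 (SE 0.32) for washed cells. Without the 2 medium libraries that stood apart these became 4.57 and 5.14, because the other 9 medium libraries averaged 1.85 CPM. Medium differed from naive by -0.66 (SE 0.71, 95% interval -2.10 to 0.77), and 1 of 11 medium libraries lay above both naive ones.

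**Figure D1:**
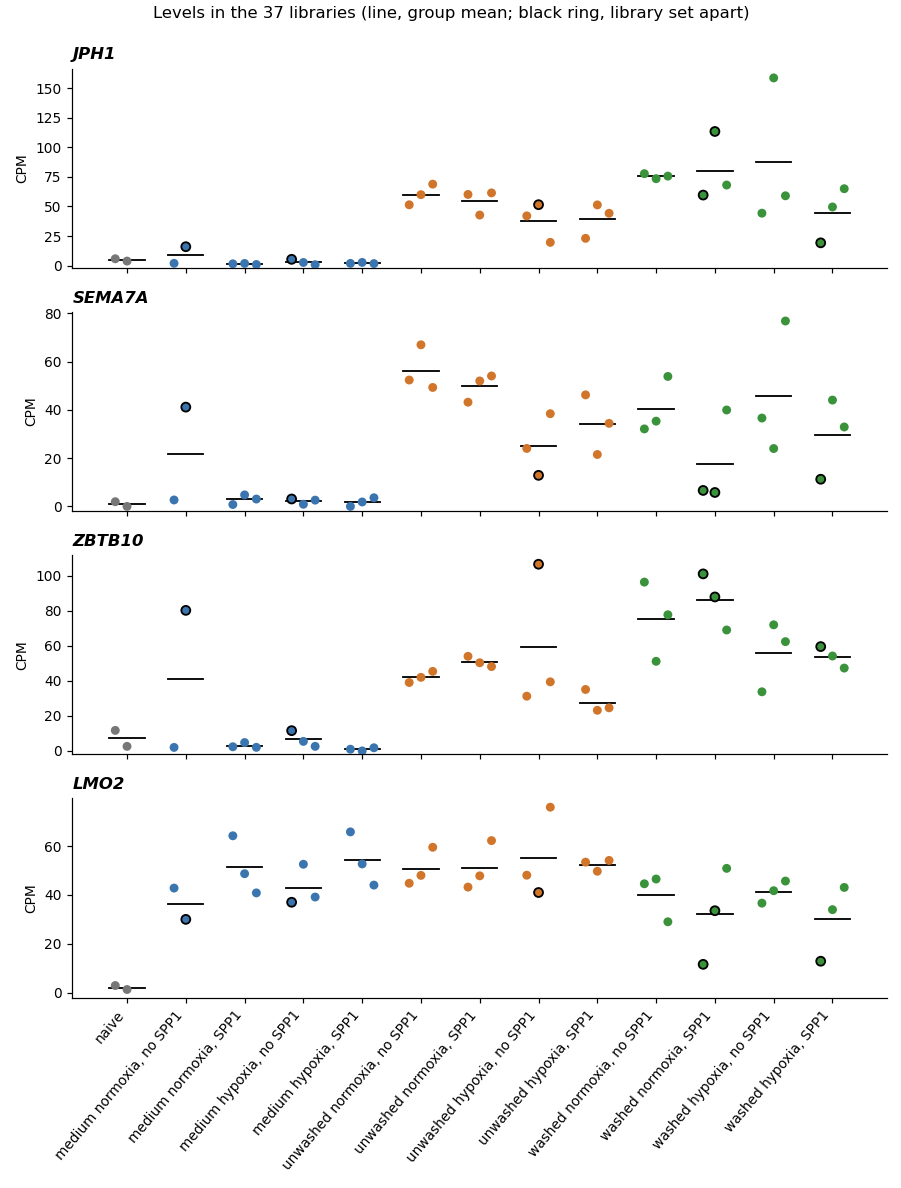
Levels (CPM, linear axis from near 0) of the 4 genes in each of the 37 libraries, by group; each point is a library, lines are group means and black rings mark the 6 libraries that stood apart. JPH1, SEMA7A and ZBTB10 sit near 0 in most medium libraries, with 1 medium library (normoxia, no SPP1 replicate 3) at 16.0, 41.2 and 80.2 CPM. LMO2 is as high in medium as with unwashed cells. It is lowest in the 2 naive libraries, followed by 2 washed libraries with SPP1 at 11.6 and 12.9 CPM.

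SEMA7A followed the same order between medium and RAW264.7 cells, with 1 library breaking the separation. Its lowest, median and highest levels were 0, 2.67 and 41.2 CPM in medium, and 12.9, 44.7 and 67.0 CPM in unwashed cultures. In washed cultures they were 5.78, 34.1 and 76.8 CPM. The highest medium value, 59 counts, came from normoxia, no SPP1 replicate 3. Each of the other 10 medium libraries was below every unwashed and washed library in CPM. The lowest washed libraries, normoxia, SPP1 replicates 1 and 2, held 4 and 5 counts (6.63 and 5.78 CPM). Medium, normoxia, SPP1 replicate 2 also held 5 counts (4.77 CPM), so the separation from washed libraries rested on library scaling. Its naive libraries held 2 and 0 counts, or 1.95 and 0 CPM.

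The means of SEMA7A were 5.86 ± 11.8 CPM in medium (SD, n = 11), 41.3 ± 15.7 in unwashed (n = 12) and 33.3 ± 20.3 in washed cultures (n = 12). Its fitted log2 differences from medium were 3.25 (SE 0.40) for unwashed and 2.95 (SE 0.40) for washed cells. They became 4.07 and 3.76 without the 2 medium libraries, and 4.02 and 3.72 without normoxia, no SPP1 replicate 3 alone. The 2 naive counts put the unwashed mean at 37.0 times the pooled naive level (95% exact Poisson interval of the naive count, 10.2 to 306). The washed mean was 29.8 times that level (8.26 to 246) and the medium mean 5.25 times (1.45 to 43.4). These intervals cover counting error only, and 59 of the 86 SEMA7A counts in medium came from the same single library. The fitted medium minus naive difference was 1.77 (SE 1.26, 95% interval -0.78 to 4.31), and 0.99 without the 2 medium libraries, whose removal left a medium mean of 2.25 CPM.

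ZBTB10 also lay low in medium, again with normoxia, no SPP1 replicate 3 far above the rest. Its lowest, median and highest levels were 0, 2.38 and 80.2 CPM in medium, 23.2, 40.7 and 107 CPM in unwashed and 33.7, 65.7 and 101 CPM in washed cultures. The 80.2 CPM were 115 counts, while the next highest medium library, hypoxia, no SPP1 replicate 1, had 15 counts and 11.6 CPM. All other medium libraries had 0 to 6 counts, fewer than any culture with RAW264.7 cells. The naive libraries had 12 and 2 counts, or 11.7 and 2.60 CPM.

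Means of ZBTB10 were 10.3 ± 23.4 CPM in medium (SD, n = 11), 44.9 ± 21.7 in unwashed (n = 12) and 67.7 ± 20.4 in washed cultures (n = 12). The log2 difference from medium was 2.98 (SE 0.37) for unwashed and 3.59 (SE 0.37) for washed cells. Without the 2 medium libraries it was 4.21 and 4.81, and without normoxia, no SPP1 replicate 3 alone 4.07 and 4.69. Medium differed from naive by -0.48 (SE 0.72), a value that became 1.10 without naive replicate 1, so no direction is given. With both medium libraries left out, JPH1, SEMA7A and ZBTB10 were each separate from medium in CPM in all unwashed and all washed libraries. Of tested IDs 5.3% and 6.68% were. For SEMA7A the separation from washed libraries rested on the scaling of counts as low as those in medium.

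LMO2 went against the description of these genes as responsive to contact. Its lowest, median and highest levels were 30.0, 44.0 and 65.8 CPM in medium, 41.0, 48.9 and 75.9 CPM in unwashed and 11.6, 39.2 and 50.9 CPM in washed cultures. The naive libraries held 3 and 1 counts, or 2.93 and 1.30 CPM. Medium, unwashed and washed ranges overlapped, and all 35 libraries of those modes lay above both naive libraries. Such separation from naive was seen for 15.3% of tested IDs in medium, 14.4% in unwashed and 13.2% in washed cultures.

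The means of LMO2 were 47.1 ± 11.1 CPM in medium (SD, n = 11), 52.3 ± 9.73 in unwashed (n = 12) and 35.8 ± 12.7 in washed cultures (n = 12). Unwashed cells differed from medium by 0.20 (SE 0.19) and washed cells by -0.34 (SE 0.19) on the log2 scale. From the 4 naive counts, the medium mean was 21.1 times the pooled naive level (95% exact Poisson interval of the naive count, 8.24 to 77.4), the unwashed mean 23.4 times (9.15 to 86.0) and the washed mean 16.1 times (6.27 to 58.9). LMO2 thus differed mainly between naive splenocytes and the other modes, not between cells and medium. Whether the naive splenocytes were kept in culture is not given in the sources used here. Exposure and time in culture therefore cannot be told apart in the differences from naive, for any of the 4 genes.

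The cells-against-medium difference varied between the 4 culture conditions, which are given as descriptions. In normoxia without SPP1, where medium has 2 libraries, one of them replicate 3, the unwashed log2 difference was 2.73 (SE 0.60) for JPH1, 1.36 (SE 0.70) for SEMA7A and 0.04 (SE 0.61) for ZBTB10. In normoxia with SPP1 the same genes stood at 5.07 (SE 0.67), 4.11 (SE 0.79) and 4.01 (SE 0.73). In hypoxia without SPP1 they were at 3.56 (SE 0.61), 3.43 (SE 0.82) and 3.12 (SE 0.65). In hypoxia with SPP1 they were at 4.12 (SE 0.65), 4.12 (SE 0.84) and 4.73 (SE 0.90). LMO2 stayed between -0.05 (SE 0.36) and 0.48 (SE 0.41) over the 4 conditions for unwashed cells, and between -0.81 (SE 0.37) and 0.14 (SE 0.41) for washed cells.

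**Figure D2:**
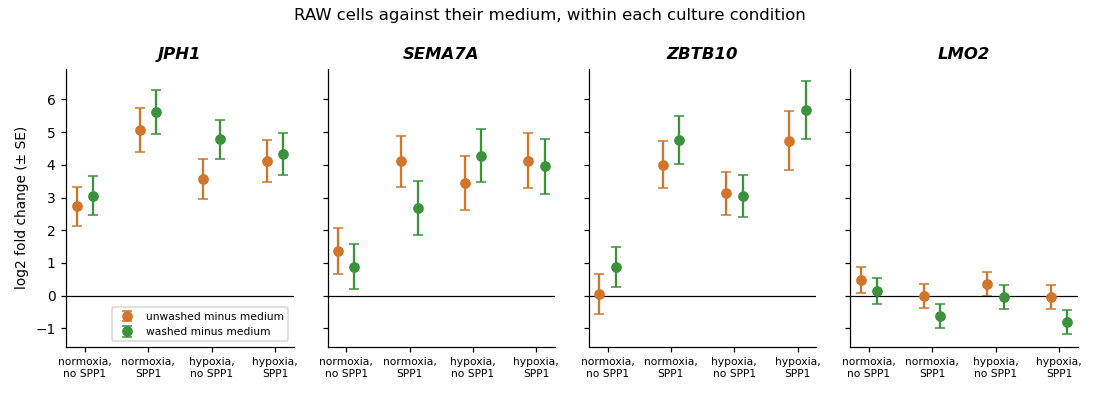
Fitted log2 fold changes (points, with SE as bars) of unwashed and of washed RAW264.7 cultures against medium within each of the 4 culture conditions. JPH1, SEMA7A and ZBTB10 are smallest in normoxia without SPP1 (2.73, 1.36 and 0.04 for unwashed cells), and LMO2 lies between -0.05 and 0.48 for unwashed and between -0.81 and 0.14 for washed cells.

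Ordering the 13 groups by mean kept groups with and without cells apart for JPH1 alone. For JPH1 the order ran from washed, hypoxia, no SPP1 (87.3 ± 62.1 CPM, SD, n = 3) to medium, normoxia, SPP1 (1.50 ± 0.45, n = 3), and all 8 groups with cells ranked above all 5 others. Of its 12 neighbouring pairs 10 had overlapping ranges. SEMA7A ran from unwashed, normoxia, no SPP1 (56.2 ± 9.45, n = 3) to naive (0.976 ± 1.38, n = 2), with overlap in 11 of 12 pairs, and medium, normoxia, no SPP1 (21.9 ± 27.2, n = 2) ranked above washed, normoxia, SPP1 (17.5 ± 19.5, n = 3). ZBTB10 ran from washed, normoxia, SPP1 (86.0 ± 16.1, n = 3) to medium, hypoxia, SPP1 (0.921 ± 0.90, n = 3), with overlap in 9, and the same medium group (41.1 ± 55.3, n = 2) ranked above unwashed, hypoxia, SPP1 (27.6 ± 6.50, n = 3). LMO2 mixed medium groups with groups with cells. It ran from unwashed, hypoxia, no SPP1 (55.0 ± 18.4, n = 3) to naive (2.12 ± 1.15, n = 2), and of its 11 overlapping pairs none involved naive, the single separate step.

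Whether a media wash of the RAW264.7 cells changed the genes was tested in all 37 libraries, the washed against the unwashed groups. None of the 4 genes passed an adjusted p of 0.05 in edgeR's quasi-likelihood test, where 7.24% of all tested IDs did. JPH1 was 0.58 higher with washed cells (log2, SE 0.23, 95% interval 0.11 to 1.04, adjusted p = 0.110) and ZBTB10 0.61 higher (SE 0.28, 0.054 to 1.17, adjusted p = 0.162). LMO2 differed by -0.54 (SE 0.18, -0.91 to -0.16, adjusted p = 0.0659) and SEMA7A by -0.30 (SE 0.31, -0.93 to 0.32, adjusted p = 0.597). Without adjustment JPH1, LMO2 and ZBTB10 were under a p of 0.05, as were 1240 of the 5193 IDs. The ranges of washed and unwashed libraries overlapped for each gene, and no washed library exceeded the highest unwashed one for LMO2 or ZBTB10. For ZBTB10 that unwashed level, 107 CPM, came from hypoxia, no SPP1 replicate 2, a library set apart. The other 11 unwashed libraries reached at most 54.0 CPM, below the washed median of 65.7 CPM.

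Leaving out single libraries moved LMO2, JPH1 and ZBTB10 past the threshold, and SEMA7A in none of 24 cases (lowest adjusted p = 0.141). LMO2 passed in DESeq2 (adjusted p = 0.0294, with 11.0% of IDs called) and in edgeR without washed, normoxia, SPP1 replicate 3 (-0.64, adjusted p = 0.0157, 14.5% called), washed, hypoxia, SPP1 replicate 3 (-0.61, adjusted p = 0.0294, 11.6% called) or unwashed, hypoxia, no SPP1 replicate 2 (-0.56, adjusted p = 0.0368, 13.4% called). It fell to -0.34 (adjusted p = 0.262) without the 4 libraries that stood apart, among them washed libraries with 8 and 7 LMO2 counts. JPH1 and ZBTB10 passed without unwashed, hypoxia, no SPP1 replicate 2 (0.68, adjusted p = 0.04995, and 0.82, adjusted p = 0.0422). Without all 6 libraries JPH1 was at 0.68 (adjusted p = 0.0286) and ZBTB10 at 0.71 (adjusted p = 0.0162), with 6.91% of IDs called.

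The 4 libraries that stood apart on the second component shared low SEMA7A levels, and differed among themselves in JPH1 and LMO2. Taken in the order in which they were introduced, SEMA7A had 11.3, 6.63, 5.78 and 12.9 CPM, the 4 lowest levels of any culture with cells. LMO2 had 12.9, 11.6, 33.5 and 41.0 CPM there, of which the first 2 were the lowest outside naive. ZBTB10 had 59.5, 101, 87.9 and 107 CPM, including the 2 highest levels of all libraries. JPH1 had 19.3, 59.6, 113 and 51.5 CPM, from its lowest level with cells to its second highest. Without these 4 libraries the washed minus unwashed difference of SEMA7A went from -0.30 to -0.02 (adjusted p = 1.00), and their part in the differences was not tested further.

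Oxygen during the preceding culture of the RAW264.7 cells was compared within each mode, hypoxia minus normoxia. None of the genes passed in unwashed cultures, where 3.62% of tested IDs did, or in washed cultures (0.0385%). With unwashed cells SEMA7A differed by -0.84 (SE 0.43, 95% interval -1.71 to 0.025, adjusted p = 0.297), from 53.0 ± 7.85 CPM in normoxia to 29.6 ± 12.3 in hypoxia (SD, n = 6 each). JPH1 differed by -0.58 (SE 0.33, -1.24 to 0.086, adjusted p = 0.356), ZBTB10 by -0.20 (SE 0.39, adjusted p = 0.843; -0.54 without the 4 libraries set apart) and LMO2 by 0.08 (SE 0.25, adjusted p = 0.904). Of the 6 hypoxic SEMA7A libraries 5 lay below the lowest normoxic one, at 43.2 CPM, and the share of all IDs with such a split was not computed. The lowest, at 12.9 CPM, was hypoxia, no SPP1 replicate 2, among the 4 libraries set apart. Without it the SEMA7A difference was -0.69 (adjusted p = 0.481). With washed cells the values were -0.31 for JPH1 (SE 0.32), 0.44 for SEMA7A (SE 0.44), -0.03 for LMO2 (SE 0.27) and -0.55 for ZBTB10 (SE 0.39), with adjusted p from 0.749 to 0.995. Without the 4 libraries JPH1 was at -0.02 and SEMA7A at 0.057.

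For SEMA7A the oxygen difference in washed minus that in unwashed cultures was 1.29 (SE 0.62, 95% interval 0.037 to 2.53). Its p was 0.0440 unadjusted and 0.686 adjusted, so a difference between these modes did not pass (0.173% of IDs did), and it was 0.72 (adjusted p = 0.854) without the 4 libraries.

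In medium JPH1 and SEMA7A had passed the count filter only through the cultures with cells, so their differences there are descriptions. ZBTB10 reached the minimum count in medium in the 2 libraries set apart alone. These carried the SPP1 difference that had singled it out, so its medium values are descriptions too. Hypoxia minus normoxia in medium was -1.89 for SEMA7A (SE 0.72) and -0.51 for JPH1 (SE 0.64). It was -2.10 for ZBTB10 (SE 0.69). For LMO2, the only gene tested there, it was 0.15 (SE 0.27, adjusted p = 0.949), where 0.077% of IDs passed. Without the 2 medium libraries SEMA7A was at -0.53, JPH1 at 0.19, ZBTB10 at -0.30 and LMO2 at 0.19. Leaving out normoxia, no SPP1 replicate 2, so that the odd replicate 3 alone represented its group, gave ZBTB10 -2.57. Leaving out replicate 3 instead gave 0.05. The lone library is assumed to vary like the other groups in such a fit. The oxygen values in medium thus moved with 1 library.

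**Figure D3:**
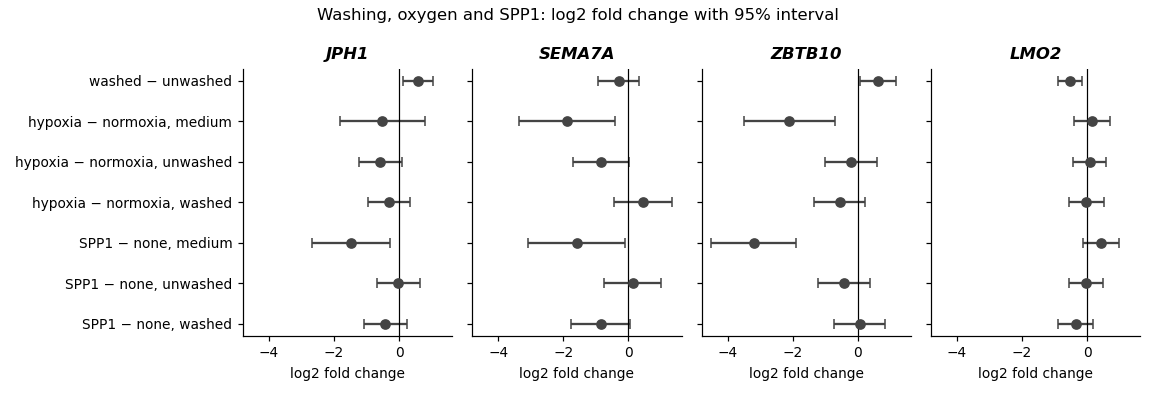
Log2 fold changes (points) with 95% intervals (bars) of the 4 genes for washed minus unwashed cultures and, within each mode, hypoxia minus normoxia and SPP1 minus no SPP1. No tested value passed an adjusted p of 0.05. The medium values of JPH1, SEMA7A and ZBTB10 (for SPP1, -3.20 for ZBTB10) are descriptions.

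For added SPP1 none of the genes passed in unwashed cultures. The values were -0.03 for JPH1 (SE 0.33), 0.13 for SEMA7A (SE 0.43), -0.03 for LMO2 (SE 0.25) and -0.41 for ZBTB10 (SE 0.39; -0.041 without the 4 libraries set apart), each with an adjusted p of 1.00. No ID passed there in edgeR (0.0%) or DESeq2, with 87 IDs at an unadjusted p under 0.05. The 95% intervals, for instance -0.69 to 0.63 for JPH1 and -0.74 to 0.99 for SEMA7A, allow changes of either sign. In washed cultures, where 0.0193% of IDs passed, SEMA7A differed by -0.86 (SE 0.44, -1.75 to 0.042, adjusted p = 0.526), from 43.1 ± 19.2 CPM without to 23.4 ± 17.5 with SPP1 (SD, n = 6 each). Of the 6 libraries with SPP1, 3 were among the 4 that stood apart, and without those 4 the value was -0.11. JPH1 (-0.42, SE 0.32), LMO2 (-0.35, SE 0.27) and ZBTB10 (0.06, SE 0.39) had adjusted p from 0.682 to 0.982.

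In medium, where 0.25% of IDs passed, LMO2 differed with SPP1 by 0.42 (SE 0.27, adjusted p = 0.666). As descriptions, JPH1 differed by -1.48 (SE 0.59), SEMA7A by -1.59 (SE 0.73) and ZBTB10 by -3.20 (SE 0.64). Its 5 medium libraries without SPP1 had 80.2, 11.6, 5.43, 2.61 and 2.01 CPM, and the 6 with SPP1 had 0 to 4.77 CPM. The lowest 2 values without SPP1 fell inside the range with SPP1. Leaving out the 2 highest libraries, which are the 2 that stood apart, gave -0.68, and leaving out the highest alone gave -1.06. JPH1 and SEMA7A were then at -0.03 and 0.07 without both. The difference of the oxygen or SPP1 effect between washed and unwashed cultures passed for none of the 4 genes. Between unwashed cultures and medium it was tested for LMO2 alone, and did not pass (0.481% of IDs did for oxygen and 0.0% for SPP1).

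Across all 37 libraries JPH1 and ZBTB10 had a Pearson correlation of log2 CPM of 0.92 (Spearman 0.80), JPH1 and SEMA7A 0.81 (Spearman 0.64) and SEMA7A and ZBTB10 0.79 (Spearman 0.59). LMO2 had 0.12 with JPH1, 0.34 with SEMA7A and 0.03 with ZBTB10. These correlations are descriptions: libraries share groups, depth and scaling, and most fall into a high group with cells and a low group without. Values for the libraries with cells therefore follow, first with unwashed and washed cultures pooled and then for each mode alone. Within the 24 libraries with cells, JPH1 and ZBTB10 had 0.44 and JPH1 and SEMA7A -0.08. SEMA7A and ZBTB10 had -0.40 there, which turned to 0.26 without the 4 libraries that stood apart. SEMA7A and LMO2 had 0.62, which went to -0.01 without those 4. JPH1 and ZBTB10 kept a positive value of 0.58 in the remaining 20 libraries. In unwashed libraries alone (n = 12) JPH1 and ZBTB10 had 0.23, JPH1 and SEMA7A 0.07, SEMA7A and ZBTB10 -0.18 and SEMA7A and LMO2 0.30. For washed libraries alone (n = 12) the same pairs had 0.39, 0.01, -0.44 and 0.66.

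**Figure D4:**
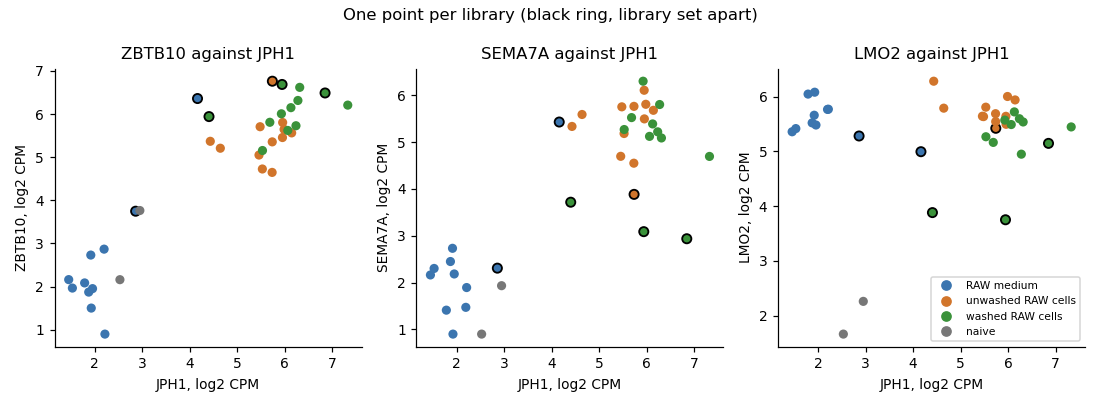
Log2 CPM of ZBTB10, SEMA7A and LMO2 against log2 CPM of JPH1, 1 point per library, coloured by mode; black rings mark the 6 libraries that stood apart. Most medium and naive libraries are low and most libraries with cells high in both genes of the first 2 panels; 1 medium library lies among the high ones (ZBTB10 80.2, SEMA7A 41.2 CPM) and 2 washed libraries have low SEMA7A (5.78 and 6.63 CPM), while LMO2 is low in the naive libraries and otherwise does not follow JPH1 (Pearson 0.12 over 37 libraries).

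In medium alone (11 libraries) JPH1, SEMA7A and ZBTB10 went together, at 0.77 to 0.87, which fell to -0.01 to 0.50 without the library that was high in all 3. SEMA7A and LMO2 had -0.82 there (Spearman -0.74), and -0.79 (Spearman -0.65) in the other 10 libraries, with 0 to 5 SEMA7A counts each. Over all 37 libraries and by Pearson correlation, ZBTB10 was 9th nearest to JPH1 and JPH1 10th nearest to ZBTB10, among 5192 other tested IDs. SEMA7A was 121st nearest to JPH1 and LMO2 2106th. By Spearman correlation the same ranks were 65th, 77th, 426th and 2765th. The genes were picked by their levels in these libraries, so nearness between them is partly set by that choice.

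For each gene the ID with the highest correlation over the 37 libraries was looked up, so a like order of modes is set by the choice. For JPH1 it was ENSG00000138081.22 (0.96), at 605 ± 237 CPM in medium (SD, n = 11), 1593 ± 321 in unwashed (n = 12) and 1697 ± 254 in washed cultures (n = 12). For SEMA7A it was ENSG00000123358.20 (0.93), at 101 ± 201, 1009 ± 491 and 924 ± 449 CPM in the same modes, with 705.9 CPM in its highest medium library. For ZBTB10 it was ENSG00000087460.29 (0.94), at 160 ± 57.4, 279 ± 41.5 and 352 ± 53.9 CPM. For LMO2 it was ENSG00000043093.15 (0.85), at 59.7 ± 13.4, 67.9 ± 12.9 and 49.0 ± 16.4 CPM against 17.6 ± 2.75 in the naive libraries (n = 2).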

How the data were processed

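Per the series text, the authors mapped the mouse QuantSeq 3′ reads to a human genome (GRCh38), using STAR 2.7.10b, and obtained gene counts from featureCounts (Rsubread 2.0.3). The deposited values are raw counts, whole numbers in 100% of cells. The kit added molecular identifiers, but whether they entered the counts is not given in the sources used here, so PCR copies may be included. The labels require an RNA integrity above a minimum yet quote a range that reaches below it.

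Counts were analysed with R 4.3.3 and edgeR 4.0.16. Of 22657 IDs with a count, 5193 passed filterByExpr (minimum count 10), and these held 97.8% to 99.4% of the counts. TMM scaling was applied and CPM taken on the scaled size, with a prior count of 2 for log2 CPM. A quasi-likelihood model with 13 group means was fitted to all 37 libraries, and p-values were Benjamini-Hochberg adjusted over all tested IDs (threshold 0.05). The fit was tested on simulated data. DESeq2 1.42.0 served as an alternative. Replicates of a group differed beyond counting noise in each of 35 pairs (chi-square per degree of freedom 3.19 to 54.9).

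The 4 genes, the contrasts and the libraries set apart were chosen with earlier results of these data known. Groups came from the treatment labels. For each gene the nearest ID by Pearson correlation is named. The mouse gene tables matched 0 of the human IDs, so the planned pathway and cell type marker lists could not be run, and the presence of splenocyte or macrophage markers was not checked.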

Additional observations from a re-analysis of the deposited data

How the results depend on the processing

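All values are log2 differences. The unwashed minus medium difference kept its sign for all 4 genes under other scaling, no count filter, DESeq2, only the modes compared, a replicate block and left-out libraries. Without the 2 medium libraries it was 4.57 for JPH1 and 4.21 for ZBTB10. Without all 6, an alternative chosen after seeing the data, it was 4.53, 4.18 for SEMA7A and 4.07 for ZBTB10. Leaving out 1 library at a time gave 3.64 to 4.41 for JPH1, 3.01 to 4.02 for SEMA7A, 0.12 to 0.25 for LMO2 and 2.72 to 4.07 for ZBTB10. Within single conditions it was 2.73 for JPH1, 1.36 for SEMA7A and 0.041 for ZBTB10 in normoxia without SPP1, 5.07, 4.11 and 4.01 (LMO2 -0.0078) in normoxia with SPP1, and 4.12 for SEMA7A, 4.73 for ZBTB10 and -0.046 for LMO2 in hypoxia with SPP1. Washed minus medium for LMO2 was 0.14 in normoxia without SPP1.

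Washed minus unwashed ranged with 1 library left out from 0.39 to 0.68 for JPH1 (adjusted p 0.04995 to 0.316), -0.68 to -0.19 for SEMA7A (0.141 to 0.791), -0.64 to -0.43 for LMO2 (0.0157 to 0.143) and 0.54 to 0.82 for ZBTB10 (0.0422 to 0.269). LMO2 passed in DESeq2 (-0.53), and without all 6 libraries JPH1 (0.68) and ZBTB10 (0.71) did. The cause was not tested.

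Signs turned only in small values or those resting on few libraries. Without the 2 medium libraries, hypoxia in medium gave JPH1 0.19 and SPP1 in medium gave SEMA7A 0.072 (0.17 and 0.046 without all 6). Without the 4 other libraries, SPP1 gave JPH1 0.12 and SEMA7A -0.024 with unwashed cells, and LMO2 0.15 and ZBTB10 -0.10 with washed cells (0.11, -0.032, 0.11 and -0.14 without all 6). With 1 library left out, hypoxia ranged from -0.91 to 0.55 for JPH1 and -2.57 to 0.052 for ZBTB10 in medium, and for LMO2 from -0.078 to 0.17 with unwashed and -0.22 to 0.19 with washed cells. SPP1 ranged from -0.19 to 0.11 for JPH1, -0.028 to 0.36 for SEMA7A and -0.12 to 0.12 for LMO2 with unwashed cells, and -0.049 to 0.19 for ZBTB10 with washed cells. ZBTB10 in medium minus naive ranged from -1.53 to 1.10. Without naive replicate 1 the naive level of SEMA7A is 0 and that of LMO2 1 count, so those differences have no fixed size.

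Same-numbered libraries of other modes had correlations of deviations of -0.23 to 0.27 over 34 pairs, 6 of them over 0.1. Of these, 5 were washed and unwashed pairs in hypoxia (0.13, 0.27 and 0.22 without SPP1, all 3 of that condition, and 0.13 and 0.18 with SPP1). The other 7 washed and unwashed pairs were under 0.1, so the numbers were not taken as pairs. With the replicate block the washed minus unwashed values were 0.55, -0.41, -0.54 and 0.61 for JPH1, SEMA7A, LMO2 and ZBTB10, none passing, and 387 IDs passed against 376. Fits of medium alone, or of medium and naive, dropped JPH1 and SEMA7A as too low, and gave no value for them. The nearest ID by Spearman correlation was another one for JPH1, SEMA7A and LMO2, and over the 13 group means for all 4. Low counts limit the size of differences from naive, and from medium for JPH1, SEMA7A and ZBTB10.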
